A study of Mus musculus with 12 samples.

Results

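The cytosolic ribosomal protein genes are the genes that encode the proteins of the 40S and 60S ribosomal subunits of the cytoplasm. They were chosen by symbol alone: Rpl or Rps followed by a number, with the letters a, x or y, a second number or a final l allowed, together with Rplp0, Rplp1, Rplp2 and Rpsa, and without pseudogene symbols or the Rps6 kinases. The rule found 86 of the 49585 genes in the count table, 35 of the small subunit and 51 of the large subunit. After a filter on low counts 84 of the 86 remained, among 13118 tested genes. The 2 that did not pass, Rpl3l and Rpl10l, are described with the other second copies.

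The samples were LN (lymph node) T cells of male mice aged 6 to 10 weeks, in 4 groups of 3 samples. The labels give the sort as TCRβ+ (stained with H57) and CD62L+, and the study's methods describe naive cells that were also CD44-. B6 CD4+ and B6 CD8+ T cells came from C57BL/6 mice. CD8.1 and CD8.2 T cells came from CD8Dual mice, also called 8in4, in which the altered Cd4 locus encodes CD8α.1 and CD8β in place of CD4 while the Cd8 locus is left as it is. CD8.1 T cells therefore carry CD8 from the Cd4 locus and CD8.2 T cells carry CD8 from the Cd8 locus. Both alleles are germline alleles with no Cre or transgene. RNA came from pooled sorted cells, and the labels do not say which samples came from separate animals, so P values measure the spread between these samples, which may be partly technical. The study compared the helper-like with the cytotoxic-like cells within each strain, and each CD8Dual population with its B6 counterpart.

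A ribosome holds a single copy of most of these proteins, whereas the ribosomal stalk holds several copies of the acidic P proteins. Ribosomal protein mRNAs are among the most abundant of any cell. They begin with a short pyrimidine run, the 5′ terminal oligopyrimidine or TOP element, through which mTORC1 and the RNA-binding protein LARP1 adjust their translation and stability. Many of the genes hold small nucleolar RNA genes in their introns, and most have many processed pseudogenes elsewhere in the genome. Naive T cells are small resting cells whose translation is low until antigen is met, when ribosome production increases.

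Sequence at the start of 9 of these genes is shown because they are the members the comparisons below turn on: Rpl4, Rps18, Rpl13 and Rps15a were lower in B6 CD4+ and in CD8.1 T cells, Rps26, Rps6 and Rpl35 were high and Rpl39 low in only some CD8.1 libraries, and Rpl13a was the control gene of the study's RT-qPCR. Each line gives 30 bases near the annotated start, 5′ to 3′, from RefSeq on GRCm38.p6, and capitals mark a run of at least 8 pyrimidines that begins with C. With 0 as the annotated start, the run began at -17 in Rpl4 and -16 in Rpl13, and so ended before that start. It began between -7 and 6 in the other 7. In the GENCODE annotation Rpl4 starts at chr9:64173375, within its marked run.
Rpl4 (chr9:64173358-64173387, plus strand): caagtgacaagtCTTTCCTTTTCCTgtggg
Rps18 (chr17:33955650-33955679, minus strand): acgtcacttccgCTCTCTCTTCCacaggag
Rpl13 (chr8:123102322-123102351, plus strand): cgcgtgacgtcaCTTCCCTTTCgcctgatt
Rps15a (chr7:118116130-118116159, minus strand): tctttctgccatCTTCCCTCgccggtgagt
Rps26 (chr10:128626485-128626514, minus strand): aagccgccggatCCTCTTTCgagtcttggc
Rps6 (chr4:86857351-86857380, minus strand): gcggaagtcgggCCTCTTTTTCgtgacgcc
Rpl35 (chr2:39005121-39005150, minus strand): aagtcggccccgCCCTTTCCTCTTTCTCTC
Rpl39 (chrX:37085199-37085228, minus strand): cgcctctagcgaCTTCTTCTaatcgcgttc
Rpl13a (chr7:45128726-45128755, minus strand): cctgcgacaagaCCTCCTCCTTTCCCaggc
Promoter sequence, from 250 bases before to 50 after the annotated start, was matched by symbol for 62 of the 86 members. A pyrimidine run of this kind lay within 30 bases of the start in 39 of the 62 (62.9%), against 22.1% of the 8871 tested genes with a promoter and 21.4% of all 27025 promoters. The letters CCGGAAG, the core that ETS factors bind, stood on either strand in 26 of the 62 (41.9%), against 21.7% of tested genes. The reverse complement of CCGGAAG begins with pyrimidines and can overlap such a run. CCATNTT, the core of the YY1 motif, was found in 19 of the 62 (30.6%), against 18.3% of tested genes. Among the 9 promoters shown, those of Rps18, Rps26, Rps6, Rpl35 and Rpl39 held CCGGAAG and those of Rps15a, Rps26 and Rpl13a held CCATNTT. A match describes the letters and not a bound site.

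The libraries held 18667474 to 37110502 counts. Levels are given as CPM, counts per 1000000 counts after scaling for library composition. T cell marker genes (7 of 7 tested) summed to 3884 to 4526 CPM, NK cell markers to at most 7.49 CPM and erythroid markers to at most 21.8 CPM. Myeloid and dendritic markers summed to 66.1 to 108 CPM, with Itgam at 0. Of 7 tested, 4 were called higher and 0 lower in CD8.1 than in B6 CD4+ cells, and 1 higher and 2 lower in B6 CD4+ than in B6 CD8+ cells. Regulatory T cell markers (Foxp3, Il2ra, Ctla4, Ikzf2 and Tnfrsf18, all detected) summed to 133 to 185 CPM in B6 CD4+, 55.1 to 59.8 in B6 CD8+, 350.4 to 385 in CD8.1 and 54.0 to 56.4 in CD8.2 libraries, and 4 of these 5 genes were called higher in B6 CD4+ than in B6 CD8+ and 5 of 5 in CD8.1 than in CD8.2 cells. B cell markers (6 of 6 tested, mostly Ighm) summed to 534 to 572 CPM in B6 CD4+ and to 591 to 782 CPM in the other libraries. By gene, 4 of the 6 were called higher and 2 lower in B6 CD4+ than in B6 CD8+ cells. In CD8.1 against CD8.2 cells 2 were called higher and 0 lower. Naive T cell markers summed to 4617 to 5539 CPM and proliferation markers to 18.4 to 87.3 CPM, with 2 of 5 of the latter higher in CD8.1 than in CD8.2 cells. The part of these cells in the ribosomal protein results was not tested. In sorted bulk RNA, fewer cells of a type and less RNA per cell cannot be told apart. CD8.2 replicate 3 had the highest depth and 34007 CPM at Gm42418, against 895 to 8877 CPM in the other 11 libraries.

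Replicates 2 and 3 of the CD8.1 group shared a ribosomal protein profile that replicate 1 did not show. In both of them 17 tested members (20.2%) lay above the range of the 9 libraries of the other groups and 15 (17.9%) lay below it, where 14.1% and 11.4% of all tested genes did so. In CD8.1 replicate 1 no member was above that range and 1 was below, where 17.3% and 18.9% of all tested genes were. Taken singly, replicate 2 had 17 above and 19 below (21.6% and 19.8% of all tested genes). Replicate 3 had 20 above and 17 below (19.8% and 17.9% of all tested genes). More members lay outside the range of the other groups in B6 CD4+ replicates 1 and 3 (57 and 39, mostly below). The same held for CD8.2 replicates 2 and 3 (51 and 45, all above). The deviations of the 84 members from the mean of the other groups correlated at r = 0.87 between replicates 2 and 3, but at -0.23 and -0.11 between replicate 1 and each of them, a description over members that share their libraries. Over all tested genes the same 3 correlations were 0.84, 0.73 and 0.69. Counts of called members that use the CD8.1 group are therefore also given without replicate 1 and with replicate 1 as the only CD8.1 library, and single genes where this changes their call.

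Rps6, the small subunit protein that S6 kinases phosphorylate, had 2966, 4531 and 4700.4 CPM in CD8.1 replicates 1, 2 and 3, while the 9 libraries of the other groups ran from 2598 to 3916 CPM. Rpl35, a protein at the mouth of the exit tunnel, had 1381, 2191 and 2240.0 CPM, with the other groups between 1217 and 1723. Replicate 1 sat inside the range of the other libraries for both genes, and replicates 2 and 3 sat above it. Rpl39, a small protein in the wall of the exit tunnel, went the other way with 1778, 1270.1 and 1321 CPM, against 1461 to 2249 in the other groups. Rpl38 had 1030.1, 660.3 and 697 CPM, against 829.9 to 1100.2. Again replicate 1 lay inside that range and the other pair below it. The 17 members above the range were 4 of the small and 13 of the large subunit (median transcript length 851 bases, GC 52.5%), and the 15 below it were 9 of the small and 6 of the large subunit (612 bases, GC 50.6%).

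**Figure D1:**
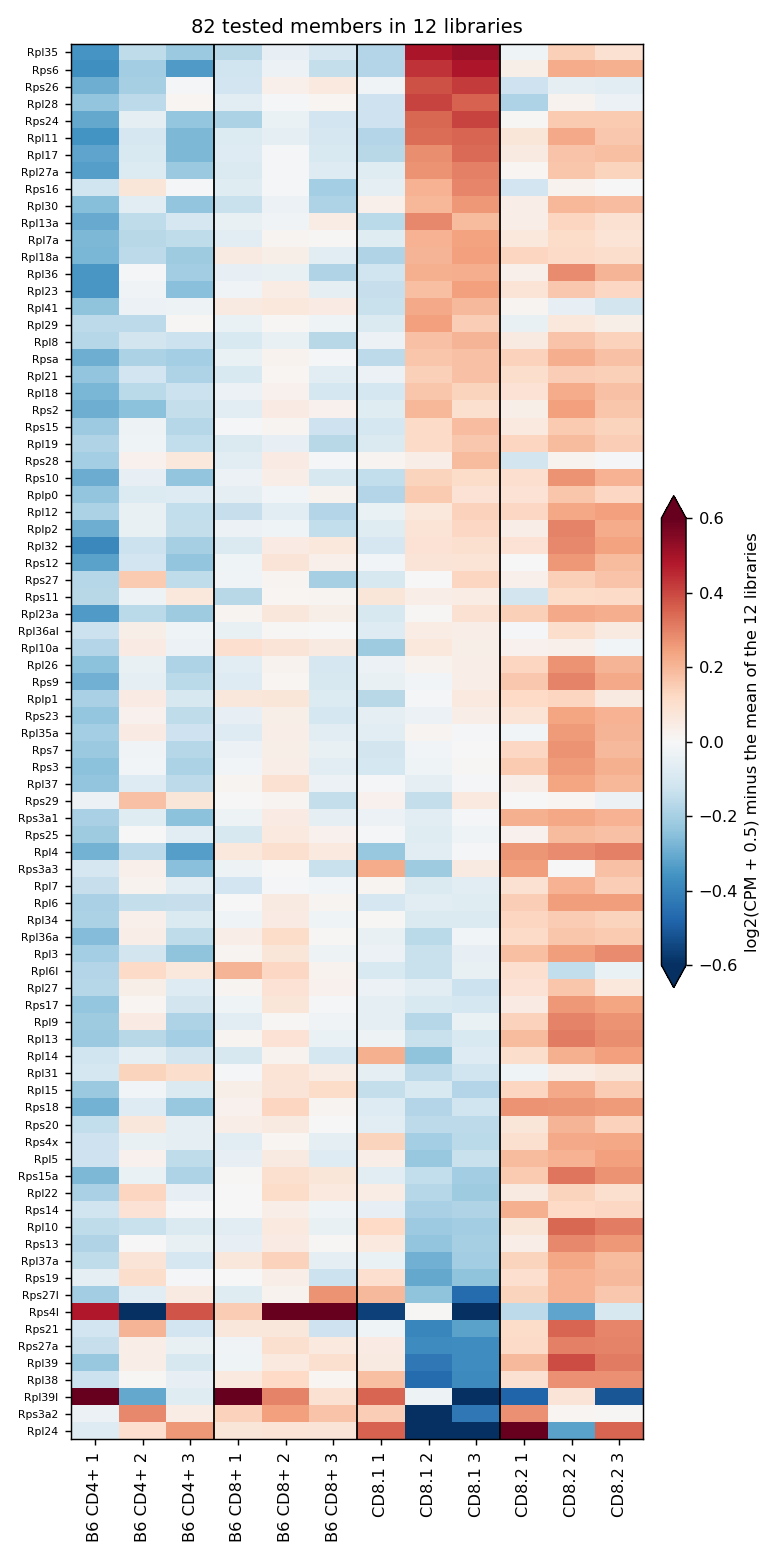
Each row is 1 of 82 of the 84 tested members and each column 1 of the 12 libraries; the colour is log2(CPM + 0.5) minus the mean of that member over the libraries. CD8.1 replicates 2 and 3 share a pattern of high and low members that CD8.1 replicate 1 and the other groups do not show, and the CD8.2 columns are mostly high.

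The 86 genes took up between 21.0% and 26.2% of all counts of a library. The share was 21.0%, 23.5% and 22.5% in the 3 B6 CD4+ libraries (22.3% ± 1.25, SD, n = 3) and 23.0%, 24.1% and 23.3% in the B6 CD8+ libraries (23.5% ± 0.525). It was 23.5%, 23.6% and 24.0% in CD8.1 libraries (23.7% ± 0.267) and 25.2%, 26.2% and 24.7% in CD8.2 libraries (25.4% ± 0.798). All 3 CD8.2 libraries were above the other 9, while the other 3 groups overlapped. CD8.1 replicates 2 and 3 were thus within 1 percentage point of replicate 1 in the sum. The small subunit genes made up 48.4% to 49.7% of the member counts in every library. Genes of the mitochondrial ribosome, which is built from other proteins, took up 0.277% to 0.317% of counts.

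**Figure D2:**
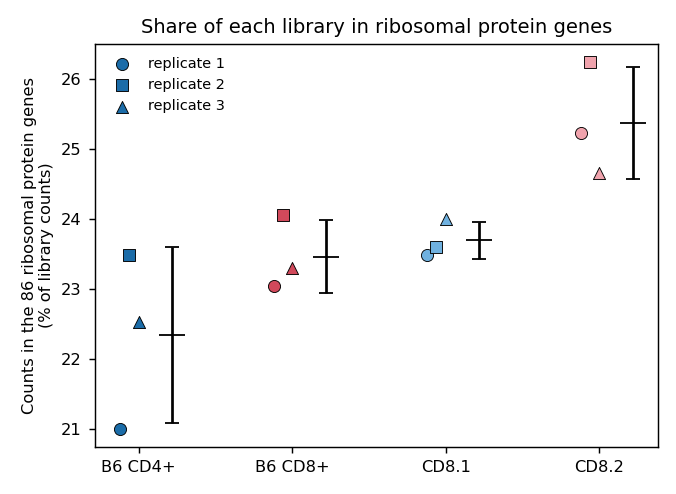
Share of each library's counts in the 86 ribosomal protein genes (percent, axis not starting at 0), 1 point for each library with the group mean and SD. The CD8.2 libraries (24.7% to 26.2%) lie above all others.

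Single members were expressed at very different levels. Of the 84 tested members, 74 had a mean above 1000 CPM and 8 were below 200 CPM, and 67 members were among the 100 most abundant genes of the table. Per kilobase of transcript, which allows genes to be compared, the median was 3712 CPM per kb. Rps24, a small subunit protein mutated in some patients with Diamond-Blackfan anaemia, was highest with 17136 CPM per kb, followed by Rps27 (15300.0) and the stalk protein Rplp1 (11959). The lowest were Rps4l (2.34), Rpl39l (2.93) and Rpl24 (4.05). The level of Rpl24 is uncertain, since near-identical rows of the table held 52.4 CPM against its own mean of 2.74 CPM. These values depend on the 1 annotated transcript taken for each gene, whose lengths ran from 271 to 3706 bases. The members that form the stalk, where elongation factors dock, were at 6253 (Rplp0), 11959 (Rplp1) and 6976 (Rplp2) CPM per kb, and Rpsa, which is also known as the laminin receptor, was at 5152.

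**Figure D3:**
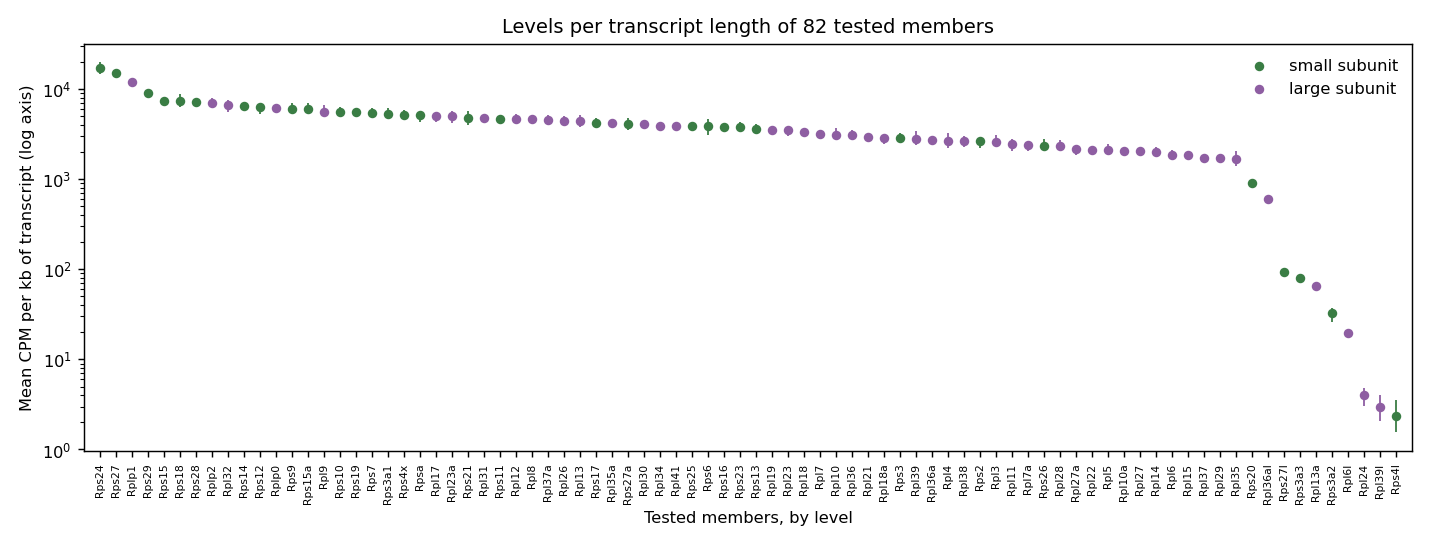
Mean CPM per kilobase of transcript of 82 of the 84 tested members (log axis), ordered by level, with a line over the range of the 4 group means. Most members lie within 1 order of magnitude of the median of 3712, and 8 genes fall more than 1 order of magnitude below it.

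The spread over the 12 libraries was small. The median coefficient of variation of the tested members was 11%, against 17.0% over all tested genes and 11.5% over the 161 other genes of at least 500 CPM. Rpl36al varied least (4.40%) and Rps4l, at a mean of 1.85 CPM, most (SD 0.51 on the log2 scale). Rpl13a, used as the RT-qPCR control, had a coefficient of variation of 11.5%. The level of that row is uncertain, since near-identical rows held 98.5 CPM against its own mean of 69.1 CPM. Among 12 common reference genes Sdha (3.23%), Ywhaz (5.18%), Ppia (7.09%) and Actb (9.73%) varied less, and Gapdh (14.9%) and B2m (13.9%) more. Because of that uncertainty these values do not rank the RT-qPCR control against the reference genes. In the 12 libraries Rpl13a had 55.7, 61.7 and 64.0 CPM in B6 CD4+, 66.7, 67.7 and 70.8 in B6 CD8+, 61.3, 83.9 and 78.5 in CD8.1 and 70.6, 75.1 and 73.3 in CD8.2 samples. It was highest in CD8.1 replicates 2 and 3 and lowest in B6 CD4+ replicate 1, and no comparison called it with all libraries. When CD8.1 replicate 1 was left out, Rpl13a was among the 32 members called higher for CD8.1 against B6 CD4+.

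A few ribosomal protein mRNAs were lower in B6 CD4+ than in B6 CD8+ T cells. Calls were made at an adjusted P under 0.05 (quasi-likelihood test of edgeR, Benjamini-Hochberg). By this rule 10 of the 84 tested members fell and 0 rose, where 11.7% of all tested genes were called lower and 11.4% higher. The called share of members, 11.9%, was close to that background, and 18 members had an unadjusted P under 0.05. DESeq2 and limma-voom also called 0 members higher. Whether or not they passed, 77 of 84 members had a negative log2 fold change, with a median of -0.11 against -0.0011 over all tested genes. In 28 members (33.3%) every B6 CD4+ library was below every B6 CD8+ library, against 19.6% of all tested genes, and in 0 members was every one above (19.4% of all tested genes). The median was 0.038 over the 2549 other tested genes with transcripts under 1000 bases and 0.020 over the 161 other genes of at least 500 CPM.

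The 10 called members were 6 of the large subunit (Rpl4, Rpl23a, Rpl13, Rpl3, Rpl6 and Rpl32) and 4 of the small subunit (Rps18, Rps12 and Rps15a among them), and all were small changes of 1.13-fold to 1.26-fold. Rpl4, which lines the exit tunnel, had 3348, 3656 and 3249 CPM in B6 CD4+ and 4263, 4361 and 4248 CPM in B6 CD8+ libraries. The groups did not overlap, and the log2 fold change was -0.33 ± 0.070 (SE; adjusted P = 0.00264). Rpl23a, at the tunnel exit, had 2220.1, 2516 and 2426 CPM against 2842, 2948 and 2881 CPM, also without overlap (-0.28 ± 0.070, adjusted P = 0.00863). Rps18, a protein of the small subunit head, had 3366, 3872 and 3492 CPM against 4165, 4466 and 4135 CPM, again with every B6 CD4+ library lower (-0.25 ± 0.067, adjusted P = 0.0129). Rpl13 had 2925, 3039 and 2964 CPM against 3452, 3617 and 3315 CPM (-0.22 ± 0.064, adjusted P = 0.0209). In all 10 called members the 2 groups were separate. B6 CD4+ replicate 1 was the lowest library for many members, with 57 of them below the range of the other groups (12.9% of all tested genes were), and without it 2 of the calls remained (Rpl4 and Rpl23a). Without B6 CD8+ replicate 2 the same 2 were called. The count was 3 without B6 CD4+ replicate 3, 6 without B6 CD8+ replicate 1 or 3, and 18 without CD8.1 replicate 1, which enters through the spread shared by all groups. In that last fit 14.2% of all tested genes were called lower.

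CD8.1 T cells had less of many ribosomal protein mRNAs than CD8.2 T cells. Here 30 members fell and 1 rose, where 13.8% of all tested genes were called lower and 14.9% higher, so that the lower calls took in 35.7% of the members. The median log2 fold change of the members was -0.17 (-0.24 for the small and -0.15 for the large subunit), against -0.0047 over all tested genes, and 67 of the 84 were negative. The members' median was -0.17 without CD8.1 replicate 1 and -0.22 with replicate 1 alone. In 34 members (40.5%) every CD8.1 library was below every CD8.2 library, against 20.9% of all tested genes, and in 1 member every one was above (19.8% of all tested genes). The 30 members were 16 of the small and 14 of the large subunit, and fell by 1.14-fold to 1.45-fold.

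The members with the smallest P lay low in all 3 CD8.1 libraries. Rps18 had 3882, 3625 and 3762 CPM in CD8.1 and 4933, 4916 and 4886 CPM in CD8.2 libraries (-0.39 ± 0.068, adjusted P = 0.000525). Rpl13 had 3337, 3107 and 3197 CPM against 3889.5, 4232 and 4140.2 CPM (-0.35 ± 0.064, adjusted P = 0.000794). For these genes the 3 CD8.1 libraries lay close together and all below CD8.2. Rpl4 had 3487, 3905 and 4063 CPM against 4908, 4962 and 5025 CPM (-0.38 ± 0.070, adjusted P = 0.000868), with replicate 1 the lowest. Rps15a had 3629, 3444 and 3295 CPM against 4242, 4752 and 4591 CPM (-0.39 ± 0.074, adjusted P = 0.00105). Both groups were separate in these genes too. Rpl39, with the largest fall, had the values given above for CD8.1 and 1962, 2249 and 2127 CPM in CD8.2 (-0.54 ± 0.11, adjusted P = 0.00209). Without CD8.1 replicate 1 its log2 fold change was -0.72 ± 0.081 (adjusted P = 1.14e-05) and with replicate 1 alone it was -0.25 ± 0.11 (adjusted P = 0.125).

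Of the 30 members that fell, 11 belonged to the 15 that lay below the other groups in CD8.1 replicates 2 and 3, and 19 did not. Both lists draw on the same CD8.1 and CD8.2 libraries and are not independent. With replicate 1 as the only CD8.1 library, 19 members were called lower, and 10 of them were among the 30: Rpl13, Rpl15, Rpl3, Rpl4, Rpl6, Rps15a, Rps18, Rps3, Rps3a1 and Rps7. Without replicate 1 there were 38 lower calls and all 30 were among them, with 7 higher calls in place of 1. Of all tested genes, 19.2% were called lower and 18.2% higher in that fit. A single CD8.1 library is assumed to vary like the other groups. Without CD8.2 replicate 2 the lower calls numbered 19. The member that rose was Rps26, a small subunit protein next to the mRNA exit, with 1574, 2082 and 2136 CPM in CD8.1 and 1467, 1536 and 1524 CPM in CD8.2 libraries (0.36 ± 0.11, adjusted P = 0.0194). CD8.1 replicate 1 was only just above the CD8.2 libraries, and with it alone the log2 fold change was 0.061 ± 0.10 (adjusted P = 0.743). The call of Rps26 was also lost without CD8.1 replicate 2 or 3 and without CD8.2 replicate 1 or 3. Rps6 had a log2 fold change of 0.12 ± 0.13 (adjusted P = 0.533), which was 0.29 ± 0.070 without replicate 1 (adjusted P = 0.00555) and -0.34 ± 0.094 with replicate 1 alone (adjusted P = 0.0244), so its direction turned on which CD8.1 libraries were used.

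**Figure D4:**
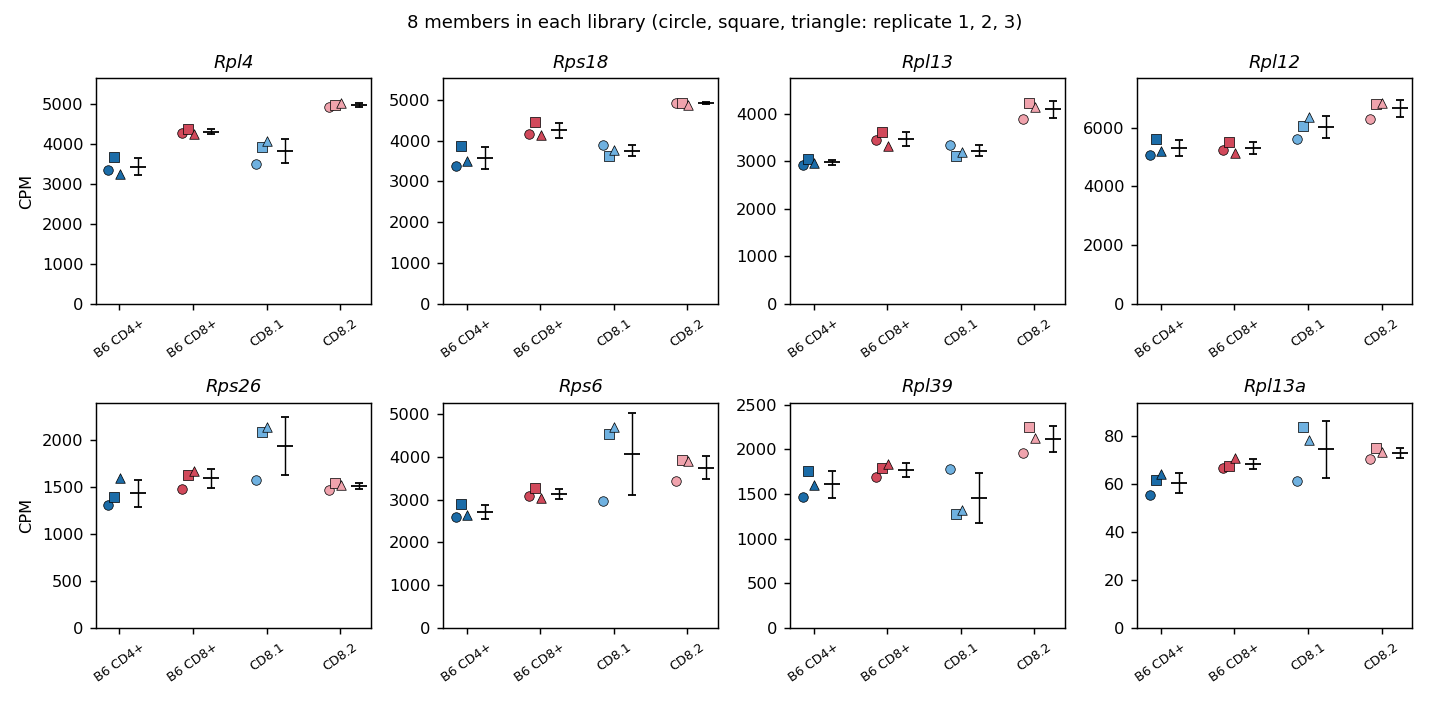
CPM of 8 members in each library (circle, square and triangle for replicates 1, 2 and 3), with the group mean and SD beside them; all axes start at 0. Rpl4, Rps18 and Rpl13 are lower in B6 CD4+ than in B6 CD8+ and also lie below CD8.2 in the CD8.1 libraries, whereas Rps26, Rps6 and Rpl39 are split within the CD8.1 group.

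The members with the largest falls after Rpl39 were Rps21, with 1846, 1432 and 1504 CPM in CD8.1 and 2031, 2395 and 2304 CPM in CD8.2 libraries (-0.49 ± 0.11, adjusted P = 0.00346), and Rps27a, which is made as a fusion with ubiquitin, with 2677, 1990.2 and 2001 CPM against 2807, 3193 and 3183 CPM (-0.46 ± 0.10, adjusted P = 0.00346). In both genes replicate 1 was the CD8.1 library nearest to CD8.2, and with it alone neither was called (-0.28 ± 0.13, adjusted P = 0.166, and -0.19 ± 0.095, adjusted P = 0.184). Rpl3, near the peptidyl transferase centre, had 3434, 3216 and 3400.4 CPM against 3989.8, 4197 and 4291 CPM (-0.31 ± 0.065, adjusted P = 0.00204), and was called with replicate 1 alone as well (-0.28 ± 0.079, adjusted P = 0.0278). Rpl5, which binds 5S rRNA together with Rpl11, fell (-0.32 ± 0.077, adjusted P = 0.00647), but not with replicate 1 alone (-0.17 ± 0.084, adjusted P = 0.179). Rpl11, which was above the other groups in CD8.1 replicates 2 and 3, had a log2 fold change of 0.034 ± 0.11 (adjusted P = 0.853) and was called lower with replicate 1 alone (-0.33 ± 0.10, adjusted P = 0.0324). The stalk genes were not called with all libraries. Rplp0 had a log2 fold change of -0.10 ± 0.081 (adjusted P = 0.396), Rplp1 of -0.14 ± 0.079 (adjusted P = 0.203) and Rplp2 of -0.15 ± 0.086 (adjusted P = 0.227). With replicate 1 alone Rplp0 was called lower (-0.30 ± 0.078, adjusted P = 0.0159), and Rplp1 and Rplp2 were not. Rpsa had -0.11 ± 0.081 (adjusted P = 0.348) with all libraries and was called lower with replicate 1 alone (-0.33 ± 0.070, adjusted P = 0.00499). It rose in CD8.1 against B6 CD4+ T cells (0.30 ± 0.081, adjusted P = 0.0257), but not with replicate 1 alone (0.076 ± 0.069, adjusted P = 0.530).

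Set side by side, the within-strain comparisons shared 7 called members, among them Rpl13, Rpl3, Rpl4, Rpl6, Rps15a and Rps18, which were 70% of the 10 in B6 mice and 23.3% of the 30 in CD8Dual mice. Over all tested genes 1009 were called lower in both, 65.9% of those in B6 and 55.6% of those in CD8Dual mice. The log2 fold change was negative in both strains for 62 of the 84 members. Across the members the sizes of the changes had little relation (Pearson r = -0.031 over 84 members, against 0.77 over all tested genes), and r was 0.22 with replicate 1 as the only CD8.1 library (0.58 over all genes) and -0.096 without it. These r values are descriptions across genes that share libraries and are not independent.

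**Figure D5:**
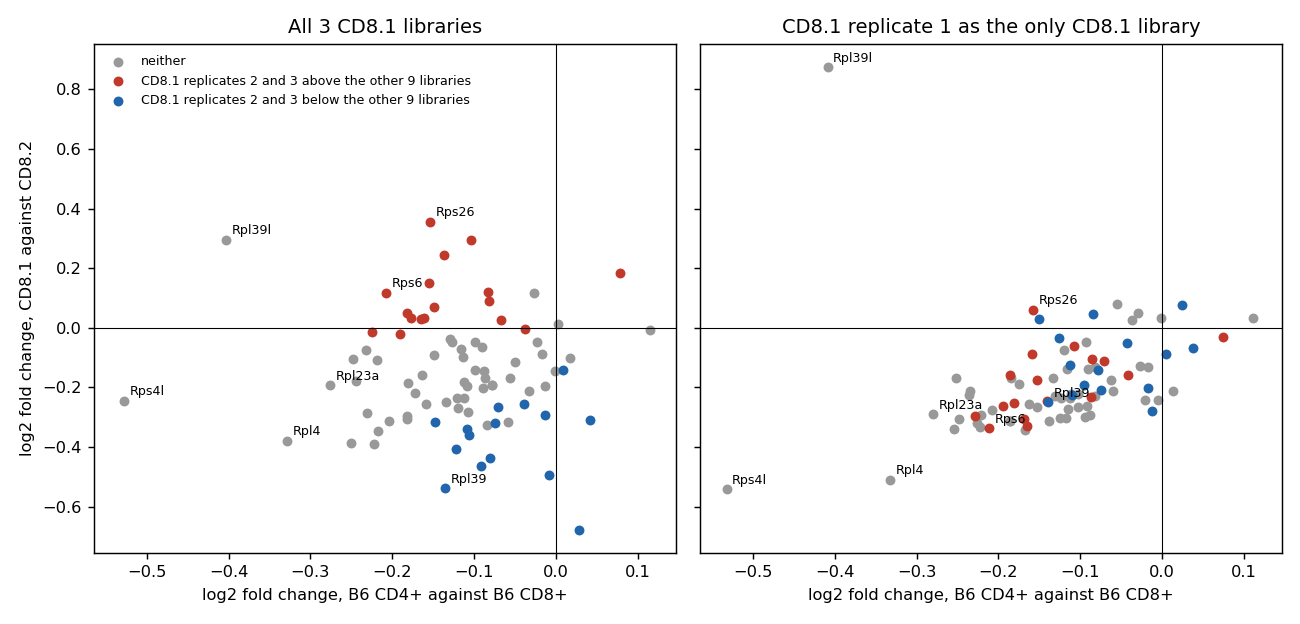
log2 fold change of each of the 84 tested members in B6 mice (x axis, CD4+ against CD8+) and in CD8Dual mice (y axis, CD8.1 against CD8.2), with all 3 CD8.1 libraries on the left and with replicate 1 alone on the right. The members coloured for lying above or below the other 9 libraries in CD8.1 replicates 2 and 3 lie apart on the left, red above blue, and are mixed with the grey ones on the right. CD8.1 replicates 2 and 3 set the colours and also enter the left panel, so the order of colours there follows from that choice.

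Whether the CD4-against-CD8 difference itself differed between the strains was tested as an interaction. No member passed in either direction by edgeR's quasi-likelihood test, where 1.58% of all tested genes had a positive and 0.29% a negative interaction, and 11 members had an unadjusted P under 0.05. By DESeq2 1 member had a positive interaction, and by limma-voom 0. The smallest P was that of Rps26 (interaction 0.51 ± 0.15 on the log2 scale, adjusted P = 0.119), followed by Rps21 (-0.49 ± 0.16, adjusted P = 0.173). In the fit without CD8.1 replicate 1, 5.36% of all tested genes had a positive and 4.77% a negative interaction. Without CD8.1 replicate 1 there were 10 positive and 14 negative interactions, and with replicate 1 as the only CD8.1 library there were 0 of either.

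Between the strains, every member called with all libraries was higher in the CD8Dual than in the B6 cells. In CD8.2 against B6 CD8+ T cells 7 members rose and 0 fell, where 3.29% of all tested genes were called higher and 4.66% lower. DESeq2 called 19 higher and limma-voom 13, with 0 lower by either, and 39 members had an unadjusted P under 0.05. The median log2 fold change was 0.18, against -0.0035 over all tested genes, 74 of 84 members were positive, and in 52 members (61.9%) every CD8.2 library was above every B6 CD8+ library, against 17.7% of all tested genes. In 4 members every CD8.2 library was below (18.6% of all tested genes). Rpl12, at the base of the stalk, had 6310.4, 6807 and 6859 CPM in CD8.2 and 5258, 5527 and 5129.5 CPM in B6 CD8+ libraries (0.33 ± 0.070, adjusted P = 0.0105). Rps9, near the mRNA entry, had 5085, 5600.4 and 5334 CPM against 4309, 4582 and 4264 CPM (0.28 ± 0.071, adjusted P = 0.0243). In both, all CD8.2 libraries were higher. Of the other 5, Rpl13, Rpl26, Rpl19 and Rps3a1 had log2 fold changes of 0.23 to 0.26. With 1 library left out, the count was 1 without B6 CD8+ replicate 1 or 3 or CD8.2 replicate 2 or 3, 2 without B6 CD8+ replicate 2, 4 without B6 CD4+ replicate 1 and 32 without CD8.1 replicate 1. The median stayed between 0.15 and 0.21 in all of these. In the fit without CD8.1 replicate 1, 6.77% of all tested genes were called higher.

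In CD8.1 against B6 CD4+ T cells 17 members rose and 0 fell, where 6.94% of all tested genes were called higher and 5.82% lower. The median log2 fold change was 0.098, against 0.0025 over all tested genes (0.087 without CD8.1 replicate 1 and 0.078 with it alone), 62 members were positive, and in 19 members (22.6%) every CD8.1 library was above every B6 CD4+ library, against 14.1% of all tested genes. Rps6 rose most (0.58 ± 0.13, adjusted P = 0.00955), from 2598, 2900.4 and 2650.3 CPM in B6 CD4+ to the CD8.1 values given above, of which replicate 1 was just above the highest B6 CD4+ library. Rpl30, which had 2373, 2671 and 2783 CPM in CD8.1 and 1945, 2222 and 1969 CPM in B6 CD4+ libraries (0.35 ± 0.081, adjusted P = 0.0119), showed no overlap, and neither did Rpl7a (0.33 ± 0.079, adjusted P = 0.0152) or Rpl27a (0.39 ± 0.094, adjusted P = 0.0161). Of the 17 members, 11 were among those that lay above the other groups in CD8.1 replicates 2 and 3. These lists share CD8.1 and B6 CD4+ libraries and are not independent. With replicate 1 as the only CD8.1 library 1 member was called (Rpl14) and none of the 17, and without replicate 1 there were 32 higher and 8 lower calls. In the fit without CD8.1 replicate 1, 11.5% of all tested genes were called higher and 10.5% lower. Without B6 CD4+ replicate 1 there was 1 call, without CD8.1 replicate 2 or 3 there were 2, without B6 CD4+ replicate 3 there were 10, and in a fit of these 2 groups only there were 0. DESeq2 called 21 higher and 0 lower, limma-voom 19 and 0, and 35 members had an unadjusted P under 0.05.

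The study's own gene list, made for B6 CD4+ against B6 CD8+ T cells, had as limits a fold above 5 with P under 0.05. These limits were met by 0 members in any comparison. Of all tested genes, 0.419% met them as higher and 0.191% as lower in CD8.1 against B6 CD4+, and 1.64% and 1.65% in B6 CD4+ against B6 CD8+. The shares were 2.24% and 1.07% in CD8.1 against CD8.2, 0.313% and 0.267% in CD8.2 against B6 CD8+, and 0.877% and 0.282% for the interaction.

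The second copies, whose symbols end in l, were far below their partners, apart from Rpl36al. Rpl36al had a mean of 320.0 CPM, 24.0% of the CPM of Rpl36a, and this ratio lay between 22.1% and 27.8% in every library. Its CPM was 292, 328 and 315 in B6 CD4+, 309.7, 321 and 319 in B6 CD8+, 303, 329.8 and 329 in CD8.1 and 317, 345 and 332 in CD8.2 libraries, the steadiest of all tested members. Rps27l, a gene induced by p53, had 46.2 CPM or 0.874% of Rps27, and was 52.4, 38.6 and 33.0 CPM in the CD8.1 libraries. Rpl6l had 17.2 CPM (0.732% of Rpl6), Rpl39l 1.61 CPM (0.0928% of Rpl39) and Rps4l 1.85 CPM (0.0367% of its X-linked counterpart Rps4x). Rpl3l, the striated muscle form of Rpl3, had 0 counts in every library. Rpl10l, the testis form of Rpl10, had 3 counts in B6 CD4+ replicate 1, 1 in B6 CD8+ replicate 1 and 0 in the rest. By annotation 4 of the 86 genes are pseudogenes: Rpl6l, Rps3a2, Rps3a3 and Rps4l.

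Because ribosomal protein genes have near-identical copies, reads can be assigned to another row of the table. Other rows with at least 95% identity over at least 150 bases were found for 75 members, 521 rows in all, and their CPM came to a median of 3.11% of the member's own. It was above 10% for Rpl13a, Rpl24, Rpl38 and Rpl41 only. Rpl24, a protein of an intersubunit bridge, had at most 4.30 CPM in any library, while its copies Gm9385 and Gm12254 had means of 29.9 and 19.7 CPM. Its 4 copies together had 52.4 CPM, far below the median of 2619 CPM over the tested members. Gm28037, which matched Rpl24 at 100% identity and shared exon bases with it, had 0 CPM. Rpl13a had at most 83.9 CPM in any library, while the copy Gm11478 had 90.6 CPM and Flt3l, which matched it at 100% identity, had 0 CPM. Where the reads of Rpl24 and Rpl13a went was not tested. The levels of these 2 genes in the table are therefore uncertain, as are those of the 4 annotated pseudogenes. Exon bases were shared with another gene in 38 of the 86, and 30 held a small nucleolar RNA gene. Adding the 521 rows to their members left the counts of calls within 1.5 times those given.

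Other genes of translation and ribosome production were counted in the same way, to be read against the 11.7% of all tested genes called lower in B6 and the 13.8% in CD8Dual mice. The shares called higher were 11.4% and 14.9%. Without CD8.1 replicate 1, 19.2% were called lower and 18.2% higher in CD8Dual mice. In CD8.1 against B6 CD4+ T cells 6.94% were called higher and 5.82% lower, and 11.5% and 10.5% without CD8.1 replicate 1. Of 34 tested genes of ribosome assembly and rRNA processing, 20 fell and 0 rose in B6 CD4+ against B6 CD8+ T cells (median log2 fold change -0.33), and 22 fell and 0 rose in CD8.1 against CD8.2 T cells (-0.30). The latter count was 21 without CD8.1 replicate 1 and 21 with replicate 1 alone. Dkc1, the pseudouridine synthase of box H/ACA particles, had 84.7, 87.9 and 77.7 CPM in B6 CD4+ and 115, 110.3 and 124 CPM in B6 CD8+ libraries, and 74.9, 72.8 and 77.9 CPM in CD8.1 and 133, 108 and 118 CPM in CD8.2 libraries (-0.48 ± 0.086, adjusted P = 0.000611, and -0.67 ± 0.086, adjusted P = 3.09e-05). Gar1, a protein of the same particles, fell by like amounts (-0.46 ± 0.084 and -0.59 ± 0.085). In both genes the helper-like groups were below the cytotoxic-like groups in every library. Of 13 elongation factors and other TOP mRNAs 5 fell in B6 and 4 in CD8Dual mice with 0 higher, among them Nap1l1, a nucleosome assembly protein, in both (-0.32 ± 0.076 and -0.26 ± 0.075), Pabpc1, the poly(A)-binding protein, in B6 (-0.29 ± 0.063), and Eef1b2, an exchange factor of elongation factor 1, in both (-0.27 ± 0.089 and -0.53 ± 0.089). In CD8Dual mice the 4 were 4 without CD8.1 replicate 1, with 1 higher, and 3 with it alone, and Nap1l1 was not called with it alone (-0.18 ± 0.094, adjusted P = 0.207). In CD8.1 against B6 CD4+ T cells 6 of the 13 rose, 8 without replicate 1 and 1 with it alone.

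Of 33 initiation factors 3 fell in B6 mice, a share below that of all tested genes, and 8 in CD8Dual mice, with 0 higher. In CD8Dual mice 10 fell and 1 rose without CD8.1 replicate 1, and 9 fell with it alone. Eif3a, the largest subunit of initiation factor 3, fell in both (-0.38 ± 0.10 and -0.30 ± 0.10), but in CD8Dual mice not without replicate 1 (-0.22 ± 0.089, adjusted P = 0.0679). Eif3m fell in CD8.1 T cells (-0.48 ± 0.11) with 334, 237 and 238 CPM, replicates 2 and 3 being the low ones, and was not called with replicate 1 alone (-0.17 ± 0.082, adjusted P = 0.168). Of 14 genes of RNA polymerase I and its factors 1 fell in B6 (Taf1d, -0.31 ± 0.10) and 5 in CD8Dual mice, among them Taf1d (-0.41 ± 0.10). The 5 were 6 without CD8.1 replicate 1 and 3 with it alone. Of 14 genes of mTORC1 and TOP regulation 4 fell and 0 rose in B6, and 3 fell and 1 rose in CD8Dual mice (2 and 0 with CD8.1 replicate 1 alone). Larp1 was the clearest, with 127, 115 and 96.7 CPM in B6 CD4+, 189, 179 and 178 in B6 CD8+, 63.1, 79.0 and 95.7 in CD8.1 and 121, 114 and 116 in CD8.2 libraries (-0.69 ± 0.12, adjusted P = 0.000626, and -0.56 ± 0.12, adjusted P = 0.00330), and it was called without replicate 1 and with it alone. Rptor, the mTORC1 subunit Raptor, also fell in both (-0.44 ± 0.10 and -0.32 ± 0.10), and Eif4ebp2, a repressor of cap-dependent initiation, rose in CD8.1 T cells (0.31 ± 0.10). With replicate 1 alone neither was called in CD8Dual mice (adjusted P = 0.0556 and 0.448).

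Of the 6 ribosomal proteins outside the symbol rule, 1 fell in B6 (Rack1, -0.19 ± 0.060) and 5 in CD8Dual mice (4 without CD8.1 replicate 1 and 1 with it alone). Rpl22l1, the paralog of Rpl22, had 516, 177 and 167 CPM in CD8.1 libraries and 521, 593 and 564 CPM in CD8.2 libraries (-0.96 ± 0.29, adjusted P = 0.0228), so that its fall lay in replicates 2 and 3. Of 77 tested mitochondrial ribosomal proteins, 1 rose and 1 fell in B6, and 8 rose and 8 fell in CD8Dual mice, with medians of -0.015 and 0.012. Each of these shares was below that of all tested genes. In CD8.1 against B6 CD4+ T cells 7 of the 77 rose and 0 fell, where 6.94% of all tested genes were called higher and 5.82% lower. Their median there was 0.10, where the cytosolic members had 0.098. Without CD8.1 replicate 1, 21 rose and 11 fell in CD8Dual mice and 22 rose and 2 fell against B6 CD4+, and with it alone 1 rose and 4 fell in CD8Dual mice and 0 were called against B6 CD4+. Of 12 reference genes 1 fell in B6 (Gusb) and 1 in CD8Dual mice, where 3 rose and 3 fell without CD8.1 replicate 1 and 0 were called with it alone. Of 145 tested pseudogene rows named after members, none passed in B6, and 13 rose and 6 fell in CD8Dual mice, shares below those of all tested genes. In CD8Dual mice 21 rose and 38 fell of 146 tested without CD8.1 replicate 1, and 0 of 152 with it alone.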

How the data were processed

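Per the study's methods, the authors prepared libraries with a low-input kit, sequenced read pairs, aligned them to mm10 with STAR and counted genes with RSEM; versions, annotation and use of strand are not given in the sources used here. The deposited values are whole-number raw counts per gene, 1 column per sample. CPM are counts per 1000000 of a library's counts over tested genes, after TMM scaling; shares are of all counts.

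Counts were tested with edgeR 4.0.16 (R 4.3.3; filterByExpr filter, TMM normalization, quasi-likelihood F-test, all 12 samples in 1 fit, Benjamini-Hochberg adjustment over 13118 genes). Errors beside log2 fold changes are standard errors, others are SD with n = 3. The common biological coefficient of variation was 11.2%. On data simulated from these samples, 46% of 1.5-fold and 77% of 2-fold changes were recovered in B6 CD4+ against B6 CD8+. In CD8.1 against CD8.2 these shares were 54% and 75%. Each share rests on 100 changed genes drawn at random from the 13118. These shares do not describe the members, which were far more abundant than most tested genes. Positions, lengths and biotypes came from GENCODE M21, matched for 86 of 86 members; copies were found with blastn 2.17.0. Alternatives were DESeq2 1.42.0, limma-voom 3.58.1, other normalizations, filters, fits and call rules, and each sample left out.

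Replicate numbers are shared by the groups of a strain. Deviations of same-numbered B6 samples correlated at 0.19, 0.20 and 0.33, so the numbers were taken to pair the B6 samples. In CD8Dual mice the correlations were -0.044, 0.13 and 0.13. The main fit did not include this pairing, and counts from fits with a replicate block are given below. Members and gene lists were chosen with earlier results of these data known. Named members were the study's RT-qPCR control, the stalk genes and Rpsa, the 4 called members per direction of smallest P without overlap of groups in each comparison, those failing the filter, second copies and their partners, the 3 highest and 3 lowest per length, those of largest and smallest spread, and 2 genes per direction of each list; Rpl5, Rpl11, Rpl35, Rpl38, Rps21, Rps27a, the reference genes with their spread and other symbols outside this rule were named after their values were seen. A few genes are counted but not reported by name here.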

Additional observations from a re-analysis of the deposited data

How the results depend on the processing

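The shares and median log2 fold changes of the members kept their direction under every alternative run; the median of CD8.1 against CD8.2 ran from -0.23 to -0.15 with 1 library left out. Of 851 alternative values of named members called with all libraries, 684 kept the call, 167 lost it and 0 reversed. Rps6, not called in CD8.1 against CD8.2 with all libraries, was called in opposite directions without CD8.1 replicate 1 and with it alone. Of 936 alternative list counts 793 were within 1.5 times. With 1 library left out, lower calls ran from 2 to 18 in B6 CD4+ against B6 CD8+, higher calls from 0 to 7 and lower from 19 to 38 in CD8.1 against CD8.2, higher from 1 to 32 and lower from 0 to 8 in CD8.1 against B6 CD4+, higher from 1 to 32 in CD8.2 against B6 CD8+, and positive and negative interactions from 0 to 10 and 0 to 14. The cause was not tested.

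With the replicate block, 13 members fell in B6 mice, in place of 10, and 2 rose and 38 fell in CD8.1 against CD8.2; 11 rose in CD8.2 against B6 CD8+, and 1 interaction was positive. With the block, and with the length or the GC trend also removed, 17 fell in B6 mice.

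By DESeq2, 2 members rose in CD8.1 against CD8.2, 19 rose in CD8.2 against B6 CD8+ (limma-voom 13), and 1 interaction was positive. With no filter on low counts, 3 rose in CD8.1 against CD8.2, 2 fell in CD8.1 against B6 CD4+, 15 rose and 2 fell in CD8.2 against B6 CD8+, and 2 interactions were positive and 3 negative. With only the groups compared, 0 rose in CD8.1 against B6 CD4+, and 41 rose and 2 fell in CD8.2 against B6 CD8+. With the length trend removed 9 rose in CD8.1 against B6 CD4+, and with the GC trend removed 20 rose in CD8.2 against B6 CD8+. At an adjusted P under 0.01, 2 fell in B6 mice, 0 rose and 18 fell in CD8.1 against CD8.2, 1 rose in CD8.1 against B6 CD4+ and 0 in CD8.2 against B6 CD8+. Over a fold of 5, 0 were called in each. With CD8.1 replicate 1 as the only CD8.1 library, 17 fell in B6 mice, 0 rose and 19 fell in CD8.1 against CD8.2, 1 rose in CD8.1 against B6 CD4+ and 28 in CD8.2 against B6 CD8+. This setting, the added copies and the trends with the block were chosen after seeing the data. Groups of 3 samples limit all calls; Rps4l, Rpl39l and Rpl24, under 5 CPM, also rest on few counts.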
